A study of Mus musculus with 16 samples.

Results

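Ephrins, their Eph receptors and semaphorin 3C were followed across 4 conditions of cultured mouse endothelial cells. The set was chosen by gene, as every probe set on both chips annotated to Efna1, Efnb1, Efnb2, Epha2, Ephb2, Ephb4 or Sema3c. Of these 7 genes, 5 had probe sets named for them, 8 probe sets among 24833 that were not controls, against 13674 genes named on both chips. Efna1, Efnb2 and Epha2 had 1 probe set each, Efnb1 had 2 and Sema3c had 3. Ephb2 and Ephb4 were not analysed here, because no probe set was named for them in the annotation used.

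All cells were endothelial cells derived from embryonic stem cells of mouse with both copies of the VE-cadherin gene (Cdh5) null. The labels called them VEC-null or VEC-positive, VEC being VE-cadherin, the cadherin of endothelial adherens junctions. The sources used here do not say by what means VEC-positive cells regained it, or whether a line is a single clone. Each line was taken sparse and confluent, after 36 h without serum in MCDB 131 medium with albumin, which gave 4 conditions shared by both lines. The series text asks which genes are raised by VEC when it is clustered at the junctions of confluent cells. For each condition 1 cRNA sample was put on 2 copies of both chip A (MG_U74Av2) and chip B (MG_U74Bv2), so that 16 arrays were measured. Error terms therefore cover the spread between hybridisations of the same cRNA, which is technical, and not differences between cultures.

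Values are MAS5 signals on a linear scale, and means are given with the SD over n = 2 array copies. Changes are log2 differences of the signal plus 50, with the standard error (SE) of a limma fit over all conditions, and folds are on the same scale, which understates changes of dim probe sets. A change passed at a Benjamini-Hochberg adjusted p below 0.05 and a size of at least 1 on the log2 scale. A probe set counted as dim in a condition if its mean lay below the median level of its chip, which was 160 for chip A and 231 for chip B. All 8 member probe sets were tested. Of these, 3 lay above that level in all 4 conditions and 5 in 1 to 3 conditions, so the latter were tested only because of the conditions in which they were high.

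Copies of a cRNA sample correlated with r from 0.984 to 0.989 on chip A and from 0.951 to 0.974 on chip B. The Gapdh control signal was 12788 and 12920 on the confluent VEC-positive copies of chip A and 16729 to 21421 on its other arrays, and chip B had 28590 to 29270 against 36572 to 55583. The 3'/5' ratio of Gapdh, a sign of RNA quality, was 1.14 to 1.23 on those chip B copies and 0.91 to 1.0 elsewhere on the chip, while on chip A it was 0.968 to 1.01 against 0.903 to 0.987. The actin control of those copies was dimmer too, at 19212 to 19634 against 23086 to 30459 on chip A. The part of these controls in the differences of confluent cells below was not tested. Of 16 endothelial markers 14 had a probe set, and all 14 lay above the dim level in at least 1 condition, among them Cdh5, whose mean was 1270 sparse and 2610 confluent without VEC, and 1400 and 2570 with it, so that this probe set did not separate the lines. Ptprc, the pan-leukocyte marker, and Epcam, an epithelial marker, had mean signals of at most 14 and 19.8 in every condition. Other markers of the same lists lay above the dim level in every condition. Cdh1, listed as epithelial, had means of 305 to 407, and the blood cell markers Cd68 and Cd14 had 273 to 910 and 219 to 393. In bulk RNA, fewer cells of a type and less RNA per cell cannot be told apart.

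Ephrins are membrane-bound ligands of the Eph receptor tyrosine kinases, so the pair signals between touching cells, in both directions. A-type ephrins are held by a lipid anchor and B-type ephrins span the membrane. Efnb2 marks arterial and Ephb4 venous endothelium. Sema3c is a secreted class 3 semaphorin that binds neuropilins and plexins and is known from the outflow tract of the heart.

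The windows before the annotated transcription starts of 4 members are shown because these genes moved in opposite directions between sparse and confluent cells. Sema3c and Epha2 fell with confluence in at least 1 line, and Efna1 and Efnb1 rose in VEC-null cells. Each is 250 bases of RefSeq sequence on assembly GRCm38.p6, 5' to 3' on the gene's strand, with matches to the searched motifs on either strand in capitals.
Sema3c, chr5:17574566-17574815, plus strand: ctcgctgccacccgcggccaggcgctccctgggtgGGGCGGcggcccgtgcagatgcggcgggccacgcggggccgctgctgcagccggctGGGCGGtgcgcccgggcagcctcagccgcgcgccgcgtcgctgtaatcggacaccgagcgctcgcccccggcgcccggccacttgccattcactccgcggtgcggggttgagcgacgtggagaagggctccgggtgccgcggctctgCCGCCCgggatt
Epha2, chr4:141300971-141301220, plus strand: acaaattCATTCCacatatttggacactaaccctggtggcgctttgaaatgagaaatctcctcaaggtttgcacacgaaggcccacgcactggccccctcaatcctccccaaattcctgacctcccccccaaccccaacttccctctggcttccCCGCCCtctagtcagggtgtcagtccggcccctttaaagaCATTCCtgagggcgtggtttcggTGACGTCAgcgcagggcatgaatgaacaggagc
Efna1, window 1, chr3:89280952-89281201, minus strand: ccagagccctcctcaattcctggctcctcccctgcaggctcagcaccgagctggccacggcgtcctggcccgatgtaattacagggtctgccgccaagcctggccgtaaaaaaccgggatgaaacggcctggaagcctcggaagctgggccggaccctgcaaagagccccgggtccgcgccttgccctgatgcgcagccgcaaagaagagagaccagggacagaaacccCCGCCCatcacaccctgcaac
Efnb1, chrX:99135811-99136060, plus strand: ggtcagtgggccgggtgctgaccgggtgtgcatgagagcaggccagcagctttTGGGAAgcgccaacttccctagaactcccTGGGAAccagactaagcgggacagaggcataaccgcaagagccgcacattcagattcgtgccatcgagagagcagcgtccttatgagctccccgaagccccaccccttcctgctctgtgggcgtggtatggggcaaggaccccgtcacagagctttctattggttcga

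All 7 genes of the set had a window in the RefSeq table, Efna1 with 2, which made 8 windows among 32851 windows of 27025 genes. They were searched on both strands for 8 motifs: the binding motif of TEAD factors as GGAATG, that of the Notch effector RBPJ as TGGGAA, that of AP-1 as TGANTCA, that of FOX factors as TGTTTAC, the cyclic AMP response element (CRE) as TGACGTCA, the E-box as CACGTG, the GC box as GGGCGG and the box bound by the TATA-binding protein as TATAAA. The TEAD and RBPJ motifs can overlap by shared letters. The Sema3c window was 78.4% G and C, against a median of 52.4% over all windows, and held 3 GC boxes, a motif present in 32.7% of all windows. Epha2 held 2 TEAD motifs, found in 12.6% of windows, and 1 CRE, found in 1.55%, beside 1 GC box. Efnb1 held 2 RBPJ motifs, found in 21.6% of windows, and window 1 of Efna1 held 1 GC box. Sema3c and Epha2, the members that fell, shared the GC box but no other searched motif, and Efna1 and Efnb1 shared none. The GC box was also in Efna1 windows 1 and 2, so it did not set the members that fell apart. A match is only a match of letters.

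**Figure D1:**
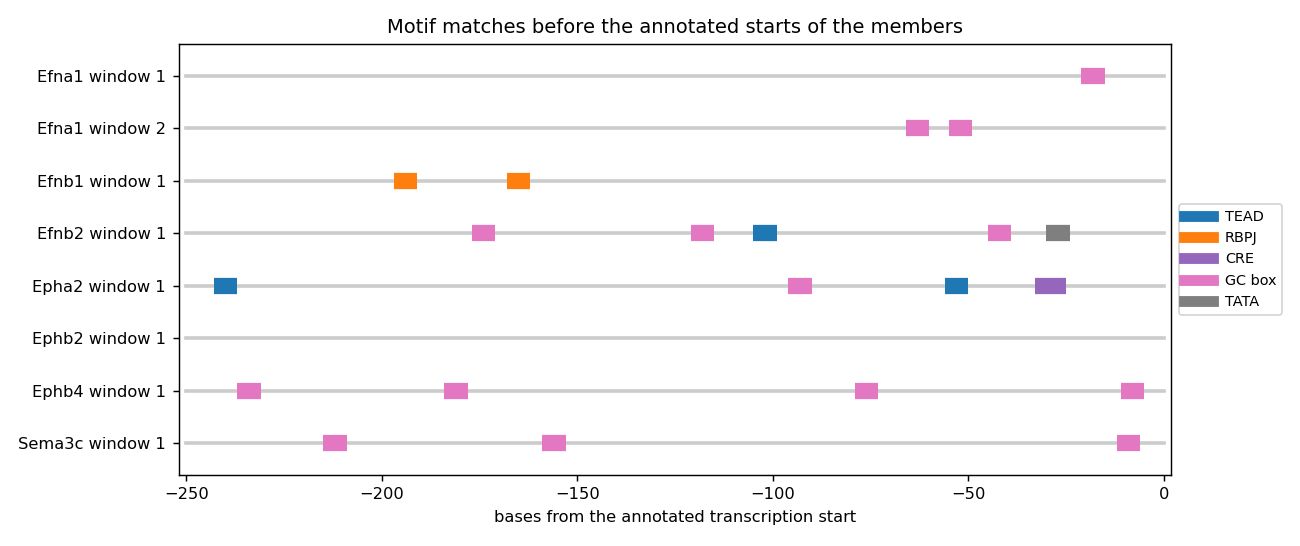
Positions of motif matches in the 250 bases before each annotated start, 1 line per window, with distance from the start in bases on the x axis and colours for motifs. GC boxes lie in the Efna1, Efnb2, Epha2, Ephb4 and Sema3c windows, the 2 RBPJ matches in Efnb1, the TEAD matches in Efnb2 and Epha2, and none in Ephb2.

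Sema3c, the secreted ligand, was bright in sparse cells of both lines and dim or nearly so in confluent cells, at all 3 of its probe sets. Probe set 163742_i_at read 10014 and 8671.6 in sparse VEC-positive cells and 4742.4 and 4201.6 in sparse VEC-null cells. In confluent cells it read 298 and 285 with VEC and 94.1 and 88.6 without. No condition overlapped another, and the order from high to low was sparse VEC-positive, sparse VEC-null, confluent VEC-positive, confluent VEC-null. The means fell from 9343 ± 950 to 291.5 ± 9.2 (SD, n = 2) in VEC-positive cells. The change was -4.78 (SE 0.12, 27.4-fold lower, limma adjusted p = 9.0e-09). In VEC-null cells they fell from 4472 ± 380 to 91.35 ± 3.9, 31.9-fold lower (SE 0.12 on the log2 scale, limma adjusted p = 6.6e-09).

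The other Sema3c probe sets gave the same order of means. Probe set 110193_at, also on chip B, read 2400.7 and 2595.4 in sparse VEC-positive and 1303.4 and 1402.3 in sparse VEC-null cells. It read 177 and 135.1 in confluent VEC-positive and 19.9 and 20.9 in confluent VEC-null cells. Again no condition overlapped another. Its log2 change with confluence was -3.63 (SE 0.18) in VEC-positive and -4.32 (SE 0.18) in VEC-null cells. Probe set 101178_at, on chip A, read 736.9 and 621.1 in sparse VEC-positive and 343.8 and 299.6 in sparse VEC-null cells. In confluent cells its copies overlapped, at 13.1 and 41.1 with VEC and 10.2 and 13.6 without. Its log2 change was -3.26 (SE 0.21) in VEC-positive and -2.58 (SE 0.21) in VEC-null cells. The limma adjusted p was at most 5.8e-06 for these 4 changes. The confluent signals of 101178_at in both lines and of 110193_at in VEC-null cells lay below the offset of 50, so their folds are set in part by it. Those of 110193_at in VEC-positive cells lay above it, and that change was -4.0 with an offset of 1. With an offset of 1 the 3 falls in VEC-null cells were between -4.65 and -5.98.

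**Figure D2:**
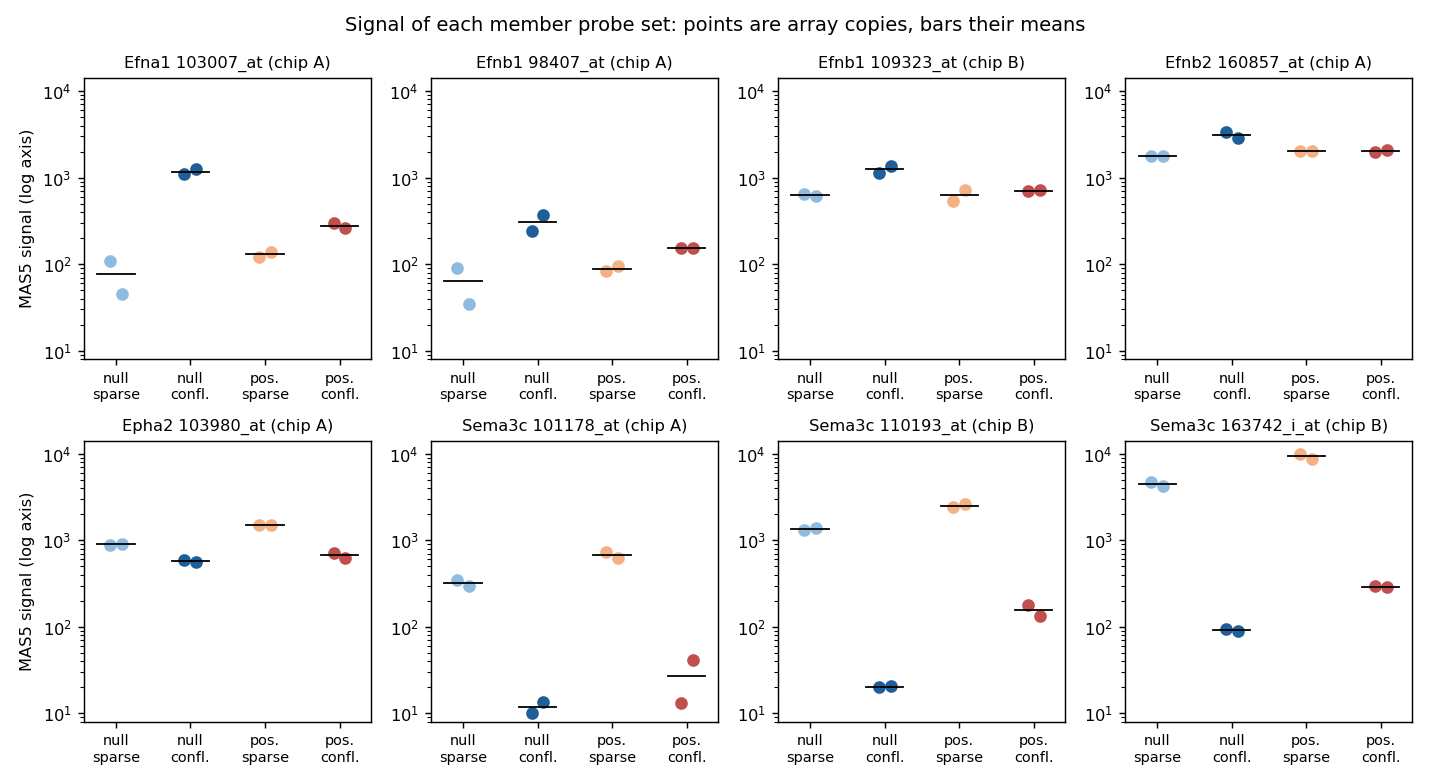
MAS5 signal (log axis) of the 8 member probe sets in the 4 conditions, with 1 point per array copy and a bar at the mean. The 3 Sema3c panels drop from sparse to confluent cells in both lines, Efna1 and Efnb1 98407_at are highest in confluent VEC-null cells, and Epha2 is highest in sparse VEC-positive cells.

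Sema3c was also higher in VEC-positive than in VEC-null cells at matched density, and this difference was much smaller than that between densities. In confluent cells 110193_at was higher by 1.54 (SE 0.18, 2.91-fold, limma adjusted p = 1.8e-04) and 163742_i_at by 1.27 (SE 0.12, 2.42-fold, limma adjusted p = 6.0e-05). Probe set 101178_at, whose confluent copies overlapped, did not pass, at 0.29 (95% interval -0.17 to 0.75). Neither of the first pair reached the size limit with an offset of 200, at 0.69 and 0.75. In sparse cells 163742_i_at was higher by 1.05 (SE 0.12, 2.08-fold, limma adjusted p = 1.3e-04). The other probe sets had 0.97 (SE 0.21) and 0.86 (SE 0.18), with adjusted p of 0.0044 and 0.0039 in limma, short of the size limit. The call of 163742_i_at sat at that limit, since it was 0.97 without the second copy of sparse VEC-null cells and 0.95 without the first copy of sparse VEC-positive cells. It was 0.96 after quantile normalization and after median centring, where 101178_at reached 1.04. Probe set 101178_at also passed, at 1.06 and 1.08, without the first copy of sparse VEC-null or the second of sparse VEC-positive cells.

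Whether the fall of Sema3c with confluence differed between the lines depended on the probe set and on the offset. The difference between the density responses, VEC-positive less VEC-null, was -0.68 (95% interval -1.33 to -0.03) at 101178_at, 0.68 (0.12 to 1.24) at 110193_at and 0.22 (-0.16 to 0.60) at 163742_i_at. The probe sets disagreed in direction, and none passed. The latter pair turned to -0.11 and -0.27 with an offset of 200. They were, when the offset was 1, 1.98 (limma adjusted p = 0.0024, passed) and 0.60 (limma adjusted p = 0.038, under the size limit). When copies were averaged so that the 4 cRNA samples were the units, the density term, 1 value for both lines, was -2.92 (SE 0.34), -3.98 (SE 0.29) and -4.89 (SE 0.28), in that order of probe sets. All 3 passed in this limma fit, with 1 residual degree of freedom and an adjusted p of at most 6.4e-04, where 9.9% of 14301 probe sets passed. The VEC term of the same fit was 0.63 (SE 0.34, not passed), 1.20 (SE 0.29) and 1.16 (SE 0.28), and 2.24% of all probe sets passed it.

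Efna1, the A-type ephrin ligand of the set, was highest in confluent VEC-null cells. It read 1095.6 and 1247.9 there, against 296.7 and 258.3 in confluent VEC-positive cells. In sparse cells it read 119.4 and 139.5 with VEC and 107.5 and 45.2 without, all below the dim level. The copies of the 4 conditions did not overlap, although sparse cells of the lines lay close together. Confluence raised Efna1 by 3.32 (SE 0.22, 9.96-fold, limma adjusted p = 1.7e-06) in VEC-null cells, from 76.35 ± 44 to 1172 ± 110 (SD, n = 2). In VEC-positive cells it went from 129.4 ± 14 to 277.5 ± 27, a change of 0.87 (SE 0.22, limma adjusted p = 0.0092) that stayed under the size limit, though it was 1.10 (adjusted p = 0.025) with an offset of 1.

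The density responses of Efna1 differed between the lines by -2.45 (SE 0.31, limma adjusted p = 4.7e-04). In confluent cells Efna1 was lower with VEC by -1.90 (SE 0.22, 3.73-fold lower, limma adjusted p = 1.8e-04). In sparse cells the difference was 0.55 (95% interval 0.06 to 1.04, limma adjusted p = 0.075) and did not pass. With the 4 cRNA samples as units the density term was 2.09 (SE 0.49, limma adjusted p = 0.025), and the VEC term, which averages over both densities, was -0.67 (SE 0.49) and did not pass.

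The B-type ephrins were also highest in confluent VEC-null cells, by less. Efnb1 probe set 98407_at read 238.7 and 373 there, 152.9 and 155.5 in confluent VEC-positive, 83.1 and 94.5 in sparse VEC-positive and 91.4 and 34.6 in sparse VEC-null cells. Its copies overlapped between sparse cells of the lines and lay above the dim level only in confluent VEC-null cells. It rose with confluence in VEC-null cells by 1.68 (SE 0.26, 3.20-fold, limma adjusted p = 5.2e-04), and by 0.56 (95% interval -0.03 to 1.14, not passed) in VEC-positive cells. The difference between these responses was -1.12 (SE 0.37, limma adjusted p = 0.048) and passed narrowly. Leaving out 1 array copy at a time ended this call in 12 of 16 cases, at adjusted p values of 0.051 to 0.14, and the value ranged from -0.75 to -1.49. With the 4 cRNA samples as units the density term of 98407_at was 1.12 (SE 0.38, limma adjusted p = 0.10).

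The brighter Efnb1 probe set, 109323_at, read 1137 and 1376.6 in confluent VEC-null cells, clear of all other copies. The copies of the other 3 conditions overlapped, at 690.8 and 724.3 in confluent VEC-positive, 648.1 and 608.2 in sparse VEC-null and 535.1 and 711.1 in sparse VEC-positive cells. Its change with confluence in VEC-null cells was 0.94 (SE 0.16, limma adjusted p = 0.0010), under the size limit, and it was 1.07 without the first copy of confluent VEC-null cells. In VEC-positive cells it was 0.18 (95% interval -0.18 to 0.55). Both Efnb1 probe sets gave -0.78 for VEC-positive against VEC-null confluent cells, with SE 0.26 at 98407_at and 0.16 at 109323_at, and neither reached the size limit, although 98407_at had -1.05 (adjusted p = 0.030) without the first copy of confluent VEC-null cells.

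Efnb2, known as a marker of arterial endothelium, had high signals in every condition and no change that reached the size limit. It read 3323.7 and 2875.9 in confluent VEC-null cells, 1979.9 and 2077.2 in confluent VEC-positive, 2010 and 2033 in sparse VEC-positive and 1790.5 and 1797.3 in sparse VEC-null cells. Confluent and sparse VEC-positive copies overlapped, and confluent VEC-null cells stood above the rest. Confluence changed it by 0.77 (SE 0.09, 1.70-fold, limma adjusted p = 8.3e-05) in VEC-null cells and by 0.00 (95% interval -0.20 to 0.21) in VEC-positive cells. The difference of these responses was -0.76 (SE 0.13, limma adjusted p = 0.0021). Confluent VEC-positive cells lay below confluent VEC-null cells by -0.60 (SE 0.09, limma adjusted p = 8.9e-04).

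Epha2, the receptor of the set and one that binds Efna1, ran the other way and was highest in sparse VEC-positive cells. It read 1512.3 and 1487.5 there, 877.1 and 911.5 in sparse VEC-null cells, 714.1 and 627.6 in confluent VEC-positive cells and 597.4 and 567.9 in confluent VEC-null cells. No condition overlapped another, and each lay above the dim level. In VEC-positive cells it fell with confluence from 1500 ± 18 to 670.9 ± 61 (SD, n = 2), a change of -1.11 (SE 0.10, 2.15-fold lower, limma adjusted p = 1.8e-05). In VEC-null cells the change was -0.58 (SE 0.10, limma adjusted p = 0.0012), under the size limit. With an offset of 200 the change in VEC-positive cells was -0.97, just under it.

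Epha2 differed between the lines by 0.72 (SE 0.10, limma adjusted p = 5.0e-04) in sparse cells and by 0.19 (95% interval -0.04 to 0.42) in confluent cells, neither reaching the size limit. The difference of its density responses was -0.53 (SE 0.15, limma adjusted p = 0.023). Using the 4 cRNA samples as units, the density term was -0.84 (SE 0.30, limma adjusted p = 0.12) and did not pass. Confluent VEC-null cells thus had the highest signal of the ligand Efna1 and the lowest of the receptor Epha2, each ranked within its own probe set.

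**Figure D3:**
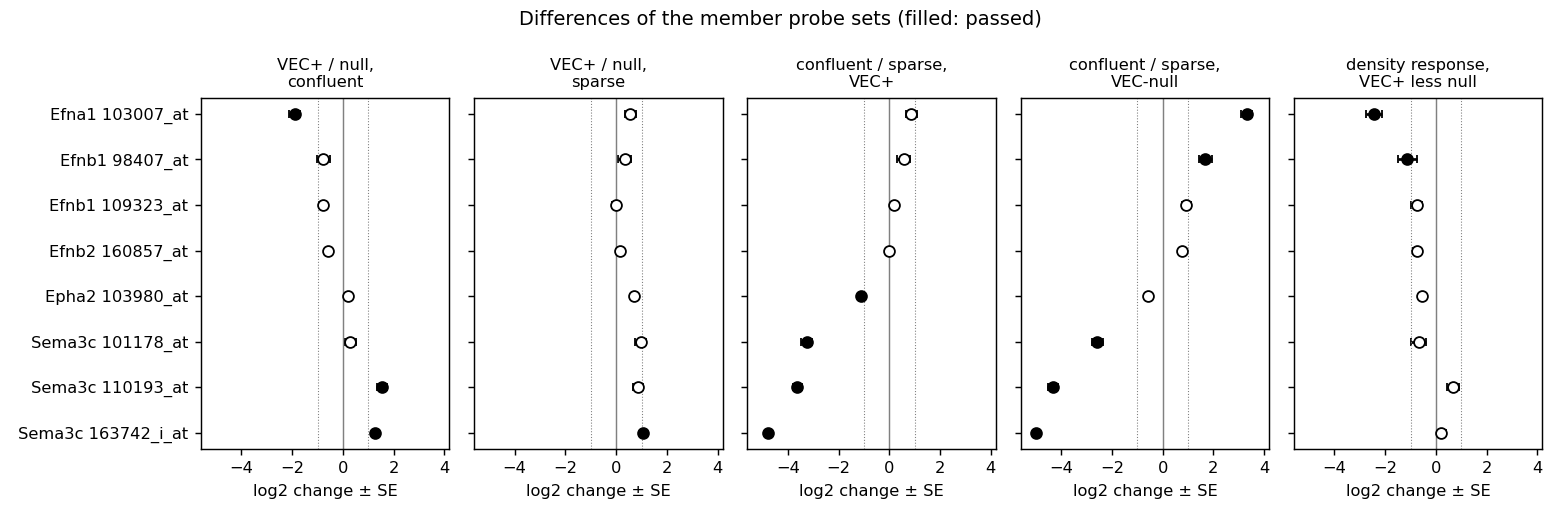
Log2 change with SE of the 8 member probe sets in the 5 comparisons, filled where the change passed, with dotted lines at the size limit of 1. Sema3c lies far to the left in both density comparisons, and Efna1 lies furthest right in VEC-null cells (3.32).

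Counted over probe sets, which are not independent because those of a gene share its transcript, 2 of the 8 were higher and 1 was lower in confluent VEC-positive than VEC-null cells, where 7.91% of 14301 probe sets passed, 4.29% higher and 3.62% lower. Their median change was -0.20, against -0.03 for all probe sets. In sparse cells 1 was higher and none was lower, where 9.71% passed, 5.43% higher and 4.27% lower. Confluence lowered 4 and raised none in VEC-positive cells, where 15.3% passed (8.13% higher, 7.21% lower), and lowered 3 and raised 2 in VEC-null cells, where 16.5% passed (9.08% higher, 7.4% lower). The members' median change was -0.56 and 0.10 in those comparisons, against 0.02 and 0.00 for all probe sets. Of the density responses 2 differed between the lines, both lower with VEC, where 12.2% of all probe sets passed, 5.89% higher and 6.31% lower. Counted by gene, 2 of 5 fell with confluence in VEC-positive cells (Sema3c and Epha2), and 1 fell (Sema3c) and 2 rose (Efna1 and Efnb1) in VEC-null cells. The comparisons share arrays with one another, and 3 of the probe sets are of 1 gene, so the counts are not independent.

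Differences between the lines can be set beside those of other genes on the same chromosomes. The median difference, VEC-positive less VEC-null, of kept genes was -0.31 in confluent and -0.34 in sparse cells on chromosome 5, which carries Sema3c. Sema3c lay above that median at all 3 probe sets. On chromosome 8, which carries Efnb2, the medians were 0.29 and 0.23, and Efnb2 had -0.60 and 0.17. The medians were -0.10 and -0.16 on chromosome 3 (Efna1), -0.09 and -0.03 on chromosome 4 (Epha2), and 0.01 and -0.02 on chromosome X (Efnb1). Their part in the differences between the lines was not tested.

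**Figure D4:**
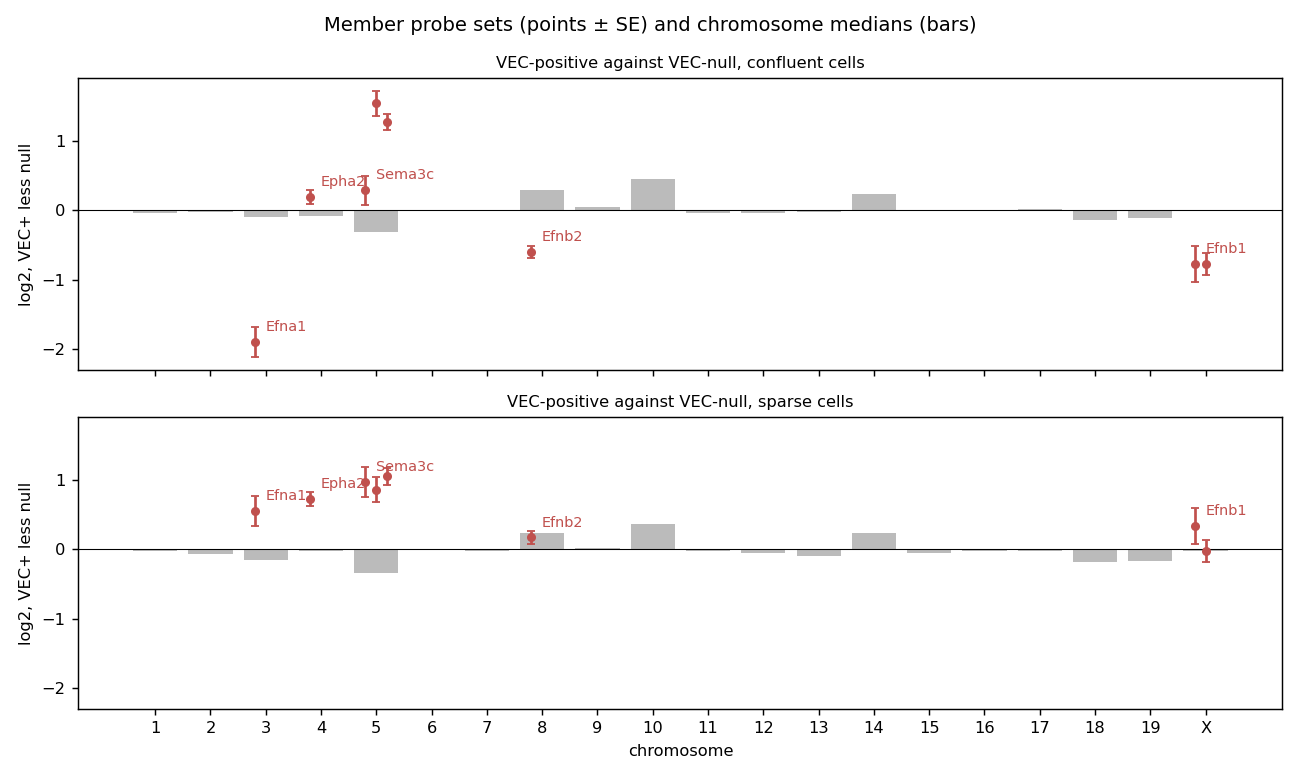
Log2 difference between the lines (VEC-positive less VEC-null) by chromosome, in confluent cells above and sparse cells below, with bars at the median of kept genes and points with SE at member probe sets. Sema3c lies above 0 on chromosome 5, whose bars are at -0.31 and -0.34, and Efna1 lies at -1.90 in confluent cells.

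Among the other Eph and ephrin genes, Efna5 and Epha7 passed in at least 1 comparison. Of 16 listed, 15 had a probe set and 9 were tested. Efna5, an A-type ephrin, was higher with VEC in confluent cells by 1.53 (SE 0.20, limma adjusted p = 3.8e-04), at means of 1884 ± 37 and 619.3 ± 22 (SD, n = 2). It was higher in sparse cells by 1.01 (SE 0.20), a call lost at 0.68 without the first copy of sparse VEC-null cells and at 0.83 without that of sparse VEC-positive cells. Efna5 thus stood higher in the line in which Efna1 was lower when confluent. Epha7, an A-type receptor, fell with confluence in VEC-positive cells by 1.75 on the log2 scale (SE 0.45, limma adjusted p = 0.0094), from 263.3 ± 31 to 43.2 ± 13, and had an adjusted p of 0.052 without the second copy of sparse VEC-positive cells and a change of -0.93 with an offset of 200. No other tested gene of the list passed in any of the 5 comparisons. Thus 1 of 9 passed between the lines at each density, where 7.91% (confluent) and 9.71% (sparse) of all probe sets passed. With confluence 1 passed in VEC-positive and none in VEC-null cells, against 15.3% and 16.5%. None passed for the difference of density responses, against 12.2%. The list's median change with confluence was 0.18 in VEC-null and 0.33 in VEC-positive cells.

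Nrp1 and Plxnd1, receptors of class 3 semaphorins, rose with confluence in both lines, while Sema3c fell. Nrp1, a neuropilin co-receptor, went from 1304 ± 180 to 5166 ± 230 in VEC-null cells and from 1225 ± 43 to 5186 ± 110 in VEC-positive cells. Its changes were 1.95 (SE 0.10) and 2.04 (SE 0.10), with a limma adjusted p of at most 3.5e-07. Plxnd1, the plexin of endothelium, rose from 835.6 ± 29 to 8829 ± 130 in VEC-null cells and from 1518 ± 420 to 8183 ± 180 in VEC-positive cells. These were changes of 3.33 (SE 0.15) and 2.42 (SE 0.15), each past the limits. Nrp2, the other neuropilin, changed by 1.35 (SE 0.09, passed) in VEC-null and 0.99 (SE 0.09, limma adjusted p = 1.5e-05, under the size limit) in VEC-positive cells. Plxna2 rose only in the test of VEC-null cells, by 1.34 (SE 0.15) against -0.42 (SE 0.15) in VEC-positive cells. The difference between its responses was -1.75 (SE 0.21, limma adjusted p = 3.6e-04). Its other probe sets had 0.74 and 0.79 in VEC-null cells, under the size limit. A further Nrp1 probe set, 92773_at, rose by 1.05 in VEC-null and 2.20 in VEC-positive cells, with a difference of 1.15 (SE 0.14) that the first did not show at 0.09.

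Among the other secreted semaphorins, Sema3e fell with confluence like Sema3c, and Sema3d and Sema3f rose. Sema3e, a ligand of Plxnd1, fell with confluence by 2.80 in VEC-null cells and by 1.18 in VEC-positive cells on the log2 scale (SE 0.17 each), from 1202 ± 3.0 to 131.6 ± 37 and from 367.9 ± 59 to 133.6 ± 11. Unlike Sema3c, it was lower with VEC in sparse cells, by -1.59 (SE 0.17, limma adjusted p = 8.7e-05), and this contrast of the genes was not tested. Sema3d rose from 134.4 ± 17 to 620 ± 84 in VEC-null and from 92.05 ± 4.2 to 524.7 ± 120 in VEC-positive cells. Sema3f rose by 2.57 (SE 0.14) and 1.28 (SE 0.14) in VEC-null and VEC-positive cells. The membrane-bound Sema6d rose by 2.17 and 1.46 (SE 0.16 each). Sema6a rose by 2.51 (SE 0.27) in VEC-null cells at the probe set chosen for it, while of its others 2 rose in both lines and 1 in neither. With an offset of 200 the changes in VEC-positive cells were -0.76 for Sema3e, 0.91 for Sema3f and 0.96 for Sema6d, under the size limit. With 4 cRNA samples as units the density terms of Sema6a (1.51) and Plxna2 (0.46) did not pass.

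Over the list of semaphorins, plexins and neuropilins other than Sema3c, 28 of 30 had a probe set and 20 were tested. Of these, 11 rose and 1 fell with confluence in VEC-null cells, where 9.08% of all probe sets rose and 7.4% fell. In VEC-positive cells 5 rose and 1 fell, against 8.13% and 7.21%. The list's median change was 1.18 in VEC-null and 0.19 in VEC-positive cells, against 0.00 and 0.02 over all probe sets. Of the density responses 6 were lower and 1 was higher with VEC than without, against 6.31% and 5.89% of all probe sets. With VEC, 4 genes were lower and none was higher in confluent cells, against 3.62% and 4.29%, and 2 were higher and 1 lower in sparse cells, against 5.43% and 4.27%. Sema6a counts among the lower genes in both the density responses and confluent cells by 1 of its 4 probe sets, and the other 3 differed by 0.04, 0.05 and -0.27 in confluent cells.

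**Figure D5:**
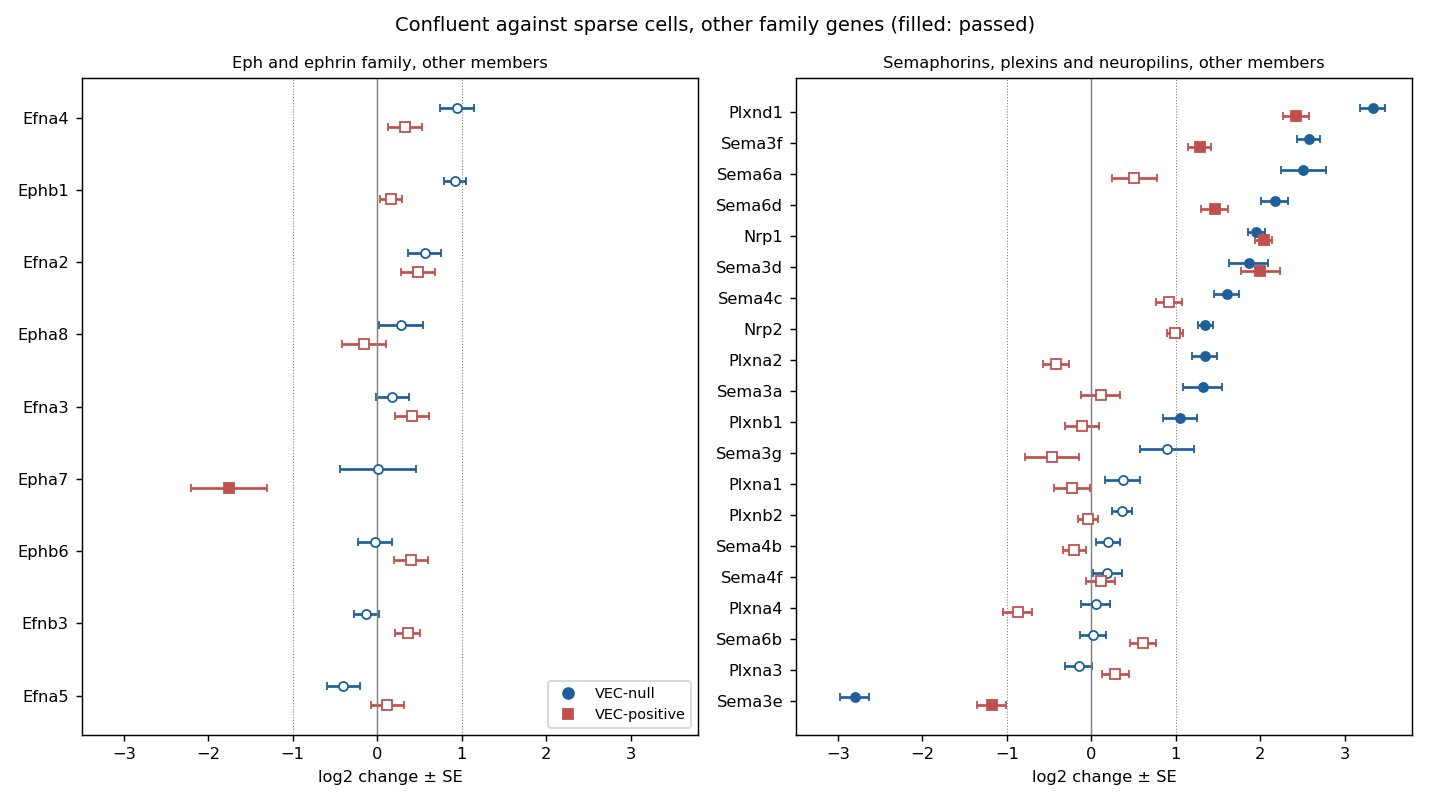
Log2 change with SE from sparse to confluent cells of the tested Eph and ephrin genes (left) and semaphorin, plexin and neuropilin genes (right), filled where it passed, with circles for VEC-null and squares for VEC-positive cells. On the right 11 circles and 5 squares pass above 0 and Sema3e passes below 0 in both lines, while on the left Epha7 alone passes, in VEC-positive cells.

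Partners of the members in signalling moved in both directions. Of 34 partners of Eph and ephrin signalling 29 were tested, and 8 rose and 2 fell with confluence in VEC-positive cells, where 8.13% of all probe sets rose and 7.21% fell. In VEC-null cells 4 rose and 1 fell, against 9.08% and 7.4%. Mmp14, a membrane metalloprotease, rose by 2.80 (SE 0.11) in VEC-null and 1.75 (SE 0.11) in VEC-positive cells. Ngef (ephexin-1), the exchange factor bound by EphA receptors, followed Epha2 in being highest in sparse VEC-positive cells, at 376.1 ± 85 against means of 45.1 to 48.7 in the other conditions. Of 23 semaphorin and plexin partners 18 were tested, and 3 rose and 1 fell in VEC-null cells, and 1 rose and 2 fell in VEC-positive cells, against the same shares of all probe sets. Met, the receptor kinase that couples to B-type plexins, fell with Sema3c, by 2.39 and by 1.76 on the log2 scale (SE 0.11 each) in VEC-null and VEC-positive cells. Crmp1, a collapsin response mediator, was lower with VEC by -1.73 (SE 0.10) in confluent and -1.17 (SE 0.10) in sparse cells, where Sema3c was higher.

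Markers of cell identity moved along with density. The summed signal of the 14 endothelial markers on the copies of VEC-null cells was 19350 to 19612 when sparse and 68390 to 68611 when confluent. With VEC it was 33761 to 36535 and 71972 to 73789. Of the 14, 10 rose in VEC-null and 8 in VEC-positive cells with confluence, where 9.08% and 8.13% of all probe sets rose. None of the 14 fell, against 7.4% and 7.21% of all probe sets. The 10 epithelial and mesothelial markers summed to 4656 to 5068 in sparse VEC-positive cells, the condition in which Sema3c and Epha2 were highest, and to 775 to 1191 in the others. Of that list 3 lay above the dim level, and Krt19 and Msln carried the sum, at 904.7 ± 61 and 3386 ± 170 in sparse VEC-positive cells, with Epcam dim in all conditions. Krt19 was at no more than 5.60 elsewhere. Msln read 596.8 ± 3.9 in sparse VEC-null cells and 30.2 ± 2.7 and 33.2 ± 25 in confluent VEC-null and VEC-positive cells, so that it fell with confluence in both lines (-3.01 and -5.40, both passed), as Sema3c did. Smooth muscle, pericyte and fibroblast markers summed to 1657 to 2222 over all conditions (5 of 14 above the dim level), but members of the list moved in different ways. Pdgfrb, a pericyte marker, read 327.6 ± 23 in confluent VEC-null cells, where Efna1 was highest, and 9.5 to 13 elsewhere. Acta2, smooth muscle actin, was 371.4 ± 19 in sparse VEC-null and 5.55 ± 1.2 in confluent VEC-positive cells, and Dcn, a fibroblast proteoglycan, was higher with VEC at both densities. Blood cell markers summed to 758 to 1940 (3 of 10 above it), highest in confluent VEC-null cells, where Efna1 was highest. Cd68 had 910 there and 273 to 353 elsewhere. The other markers above the dim level, Cd14 and Runx1, were highest in sparse VEC-positive cells, at 393 and 248. Ptprc was at most 14 in every condition. Embryonic stem cell and neural markers summed to 11054 to 12212 in sparse VEC-positive cells and 5019 to 7847 in the others (4 of 13 above it). Nes and Tubb3 carried the sum, at 6960 and 4110 in sparse VEC-positive cells. Ncam1 was lowest there, at 95.9 against 575 in sparse VEC-null cells. The stem cell markers Pou5f1, Nanog and Sox2 read at most 77.4, 64.8 and 21.4 in every condition. The part of these markers in the members' changes was not tested.

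For each member probe set whose condition means spanned at least 1 on the log2 scale, the genes of the same chip with the most similar pattern were found by Pearson's r of log2 values over its 8 arrays. These arrays are 4 cRNA samples in 2 copies, so r has few independent points and is only a description. Sema3c 163742_i_at was nearest to Mtmr10 (r = 0.993), Pcolce2 (0.992) and Plcxd2 (0.991), and 110193_at to Plcxd2 (0.996), Gfpt1 (0.996) and Mtmr10 (0.995). On chip A, 101178_at was nearest to Las1l (0.996), Selenos (0.996) and Bmp4 (0.993). Efna1 was nearest to Nos3 (0.988), the endothelial nitric oxide synthase, Ceacam1 (0.984) and Itm2c (0.981). Efnb1 98407_at was nearest to Serpinb1a (0.971), Rap2a (0.970) and Ifitm10 (0.970), and Epha2 to Cnn2 (0.993), Nucb2 (0.988) and Nedd8 (0.987). Efnb1 109323_at and Efnb2 spanned 0.96 and 0.77 and were left out.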

How the data were processed

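Labelled cRNA from 15 µg of total RNA per sample was hybridised to Affymetrix arrays, and the authors deposited 1 linear MAS5 intensity (signal) per probe set, scaled to a target of 500 (per the series text and, for MAS5, the submitters' processing notes). The sources used here give no software versions. Symbols came from the platform annotation, checked against RefSeq (GRCm38.p6). On chip A 10833 probe sets had 1 symbol, 396 several and 1193 none, and on chip B 10581, 178 and 1652. The members and gene lists were chosen with earlier results of these data known.

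From these intensities log2(signal + 50) was computed. Probe sets with at least 1 condition mean above the 50th percentile were kept (14301). limma 3.58.1 in R 4.3.3, tested on simulated data, was fitted per chip over 8 arrays (4 residual degrees of freedom, prior 5.65 and 5.62), with Benjamini-Hochberg adjustment over both chips. Array counts limit precision. Members are named with all probe sets. From each list up to 8 genes with a passing change were named by size, at their chip A probe set first, then the brightest. Nrp2, outside these for its family list, was named as a venous list gene. Same-numbered copies did not deviate together (r from -0.057 to 0.08 over 12 pairs of groups), so they were not paired. Alternatives were offsets of 1 and 200, other filters, quantile normalization, median centring, no variance trend, a replicate block, leaving out each copy and 4 cRNA samples as units.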

Additional observations from a re-analysis of the deposited data

Results flagged for a closer look

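The density response of Efna1 differed between the lines in a test of the difference itself. It was -2.45 (SE 0.31, limma adjusted p = 4.7e-04), from 3.32 in VEC-null and 0.87 in VEC-positive cells. Efnb1 probe set 98407_at also differed, by -1.12 (SE 0.37, limma adjusted p = 0.048), from 1.68 and 0.56. The brighter Efnb1 probe set 109323_at had -0.76 (limma adjusted p = 0.034), in the same direction but under the size limit.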

How the results depend on the processing

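Copies of 1 cRNA sample cannot show the spread between cultures, and values near the offset of 50 depend on it. Of the member counts, the 3 passing probe sets in VEC-positive against VEC-null confluent cells became 1 with an offset of 200. The 1 in sparse cells became 0 after quantile normalization and ranged from 0 to 2 when 1 copy was left out. The fit with 4 cRNA samples as units has no separate sparse comparison. Its VEC term, which averages both densities, passed for 2 member probe sets, both of Sema3c. The 2 differing density responses became 1 with an offset of 200, the filter at the 75th percentile (which left out Efnb1 98407_at), no filter, no variance trend or the replicate block (adjusted p = 0.063 for 98407_at in limma), and ranged from 1 to 2 when 1 copy was left out. With an offset of 1 they stayed at 2 with a changed member, as 98407_at no longer passed (-1.59, adjusted p = 0.079 in limma) and Sema3c 110193_at did (1.98, adjusted p = 0.0024). The replicate block changed no other member call, and counts of both density comparisons stayed within 1.5 times of the main ones under every alternative run. The members counted could still change. With 4 cRNA samples as units the density term is 1 value for both lines. It passed for 4 probe sets, those of Sema3c, which fell, and Efna1, which rose (2.09), while Epha2 (-0.84) did not pass.

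Direction turned only for values that had not passed. With an offset of 200 the density responses of Sema3c 110193_at and 163742_i_at differed by -0.11 and -0.27, where the main values were 0.68 and 0.22, and these in turn oppose 101178_at. The sparse difference of Efnb1 109323_at, which is -0.02 and opposes 98407_at, became 0.01 after quantile normalization and ranged from -0.21 to 0.17 without a copy. Left-out copies gave 98407_at -0.03 to 0.71 there. The change of Efnb2 with confluence in VEC-positive cells became -0.19 after median centring and -0.03 to 0.04 without a copy, and that of Efnb1 109323_at was -0.01 to 0.37. The VEC term with 4 cRNA samples is the mean of the confluent and sparse differences, not a sparse comparison. It was -0.67 for Efna1, -0.22 for Efnb1 98407_at and -0.21 for Efnb2, opposite in sign to their sparse differences. It has the sign of their confluent differences, -1.90, -0.78 and -0.60, which were larger in size. The cause of the other turns was not tested. Median centring moved the median of all probe sets by under 0.1.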

Other observations

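Arterial genes, of which Efnb2 is one in the literature, were described as a further list. Of 17 listed 11 were tested. With confluence 8 rose and none fell in VEC-null cells, where 9.08% of all probe sets rose and 7.4% fell. In VEC-positive cells 4 rose and none fell, against 8.13% and 7.21%. Dll4, the Notch ligand of arterial cells, read 85.1 ± 16 and 1309 ± 290 (SD, n = 2) in sparse and confluent VEC-null cells, and 99.25 ± 20 and 135.1 ± 110 in VEC-positive cells. Gja4, a gap junction protein, read 12.2 ± 2.3 and 661 ± 18 in VEC-null and 16.3 ± 2.7 and 24.55 ± 8.8 in VEC-positive cells. Both were highest in confluent VEC-null cells, as were Efna1, Efnb1 and Efnb2, but not every gene of the list was. Nrp1 read 5166 ± 230 in confluent VEC-null and 5186 ± 110 in confluent VEC-positive cells, and Epas1 506.8 ± 18 and 517.4 ± 70. The other Epas1 probe set, 114665_at, was lower with VEC in confluent cells, by -0.16 (not passed). It rose with confluence by 2.69 in VEC-null and 0.94 (not passed) in VEC-positive cells. In VEC-positive against VEC-null confluent cells 3 of the 11 were lower, 1 was higher and 7 did not pass. Among all probe sets 3.62% were lower and 4.29% higher there. Of the density responses, 4 of 11 were lower with VEC and none was higher, against 6.31% and 5.89% of all probe sets. This count depended on the probe set. Notch1 counts among the lower genes at -1.10, while its other probe set 162204_r_at had -0.28 and did not pass. Epas1 and Nrp1 are not counted, but their other probe sets passed, 114665_at at -1.75 and 92773_at at 1.15. Of 7 tested venous and lymphatic genes, 5 rose with confluence in VEC-null and 4 in VEC-positive cells, and none fell. The shares of all probe sets for confluence are those given above.

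Of 10 tested genes of the Slit, Robo, netrin and Unc5 guidance families, 4 rose and 1 fell with confluence in VEC-null cells, and 4 rose and 2 fell in VEC-positive cells. Over all probe sets 9.08% rose and 7.4% fell in VEC-null cells, and 8.13% and 7.21% in VEC-positive cells. Robo4, the endothelial Robo receptor, read 820.5 ± 40 and 3893 ± 150 in VEC-null and 1088 ± 160 and 3615 ± 34 in VEC-positive cells. Unc5b, a netrin receptor, read 1533 ± 190 and 5336 ± 45 in VEC-null and 1645 ± 76 and 3462 ± 220 in VEC-positive cells. Its change in VEC-positive cells, 1.05, was 0.99 with an offset of 200 and 0.97 after quantile normalization, under the size limit. A further Unc5b probe set, 112956_at, passed in neither line, at 0.86 in VEC-null and 0.43 in VEC-positive cells.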
